A study of Mus musculus with 6 samples.

Results

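The transcripts described here encode 10 antioxidant and NRF2 target enzymes, Nqo1, Hmox1, Gclc, Gclm, Txnrd1, Srxn1, Gpx3, Me1, Sod2 and Cat. They were chosen by gene symbol from the annotation of the array platform, and all 10 were measured among 22180 genes, each by 1 probe set that carries no other gene symbol. Gastrocnemius, a calf muscle, was taken from 3 mice with floxed TAK1 (Control) and from 3 littermates with a skeletal muscle-specific TAK1 knockout (KO), 3 weeks after the deletion. TAK1 is a kinase, encoded by Map3k7, that passes signals from cytokine and TGF-beta family receptors on to MAP kinases and NF-kB. The floxed allele is shared by both groups, and the genotype labels mention no other allele. The driver of the deletion, the deleted exons, the strain, sex and age of the mice and any treatment that starts the deletion were not given in the sources used here. The RNA is of whole muscle, in which cells other than fibres keep TAK1, and fewer cells of a type cannot be told apart from less RNA per cell.

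NRF2, encoded by Nfe2l2, is a transcription factor that KEAP1 holds for degradation in unstressed cells. Oxidants and electrophiles act on KEAP1, NRF2 then accumulates, pairs with small MAF proteins and binds antioxidant response elements in the promoters of enzyme genes. These enzymes make glutathione, keep thioredoxin and peroxiredoxin in the reduced state, supply NADPH and detoxify quinones and haem. Skeletal muscle forms superoxide and peroxide as it contracts, and these enzymes are among those that remove them. Sod2 and Cat are also known targets of other transcription factors, among them FoxO proteins.

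The short sequences below show where the core of the antioxidant response element, TGACNNNGC, was found near the starts of these genes. RefSeq promoter windows of GRCm38.p6, running from 250 bases before to 50 bases after a start, were matched for 8 of the 10 genes, with 11 windows in all, and both strands were searched. The core was in 4 of these 11 windows (36.4%), and in 12.4% of the 32851 windows of that length over all genes. Each run is written 5′ to 3′ on the strand of the gene, and capitals mark the 9 bases of the match. On the opposite strand the core reads GCNNNGTCA.
Gclm: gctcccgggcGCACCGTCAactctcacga
Me1: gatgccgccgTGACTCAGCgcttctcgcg
Txnrd1: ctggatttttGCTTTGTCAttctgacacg
Srxn1: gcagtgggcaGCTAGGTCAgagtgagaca
The Gclm run is chr3:122245413-122245441 on the plus strand, with the match beginning 134 bases before the start and lying on the opposite strand. The Me1 run is chr9:86695902-86695930 on the minus strand, in 1 of 2 windows of the gene, and its match begins 6 bases before the start and contains TGACTCA, the motif of AP-1. The Txnrd1 run is chr10:82859104-82859132 on the plus strand, in 1 of 3 windows, with the match 92 bases before the start and on the opposite strand. The Srxn1 run is chr2:152105542-152105570 on the plus strand, and its match begins 28 bases after the start, on the opposite strand. The windows of Nqo1, Gpx3, Sod2 and Cat held no match to these letters. A match in such a window is a description and not a binding site.

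Levels were deposited as log2 probe set summaries, on which a difference of 1 is a doubling. All 10 genes lay above 5.85, the 95th percentile of the mean levels of 1394 olfactory and vomeronasal receptor genes, which served as a guide to background. The 15 skeletal muscle fibre markers all lay above it as well, with mean levels over the list of 13.61 to 13.64 in Control and 13.56 to 13.59 in KO arrays, which did not overlap. Array medians ran from 5.78 to 5.84, and Pearson's r between arrays, across genes, was 0.990 to 0.992 within groups and 0.985 to 0.990 between them. Map3k7, the targeted gene, had levels of 8.47, 8.32 and 8.42 in Control and 8.20, 8.28 and 8.17 in KO muscle. Its log2 difference was −0.19 (limma, adjusted p = 0.686). Whether its probe set covers the deleted part is not given in the sources used here, so this level does not check the labels.

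None of the 10 enzymes passed an adjusted p of 0.05 between KO and Control muscle (limma with Benjamini-Hochberg adjustment over all genes). The same test called 21 of 22180 genes (0.0947%), with 0.0406% higher and 0.0541% lower in KO muscle. The secreted glutathione peroxidase Gpx3 and the malic enzyme Me1 were lower in all 3 KO arrays than in any Control array, by 1.74-fold and 1.49-fold on average. The sulfiredoxin gene Srxn1 was higher in all 3 KO arrays, by 1.27-fold. In the other 7 genes the groups overlapped. Over all genes the groups did not overlap in 13.4% of cases, with all KO above in 6.74% and all KO below in 6.65%. An unadjusted p under 0.05 was reached by 4 of the 10 enzymes, against 8.04% of all genes. Of these, Gpx3, Me1 and Nqo1 were lower and Srxn1 was higher, where 4.12% of all genes were lower and 3.93% higher at that p. The count of 4 was 2 without Control replicate 1 or without KO replicate 3, 2 with every probe set tested or with no sharing of variance between genes, and 3 without Control replicate 2, Control replicate 3 or KO replicate 1. As a set the enzymes were divided, with 5 higher and 5 lower in KO muscle. Their median log2 difference was −0.03, beside −0.0003 over all genes.

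**Figure D1:**
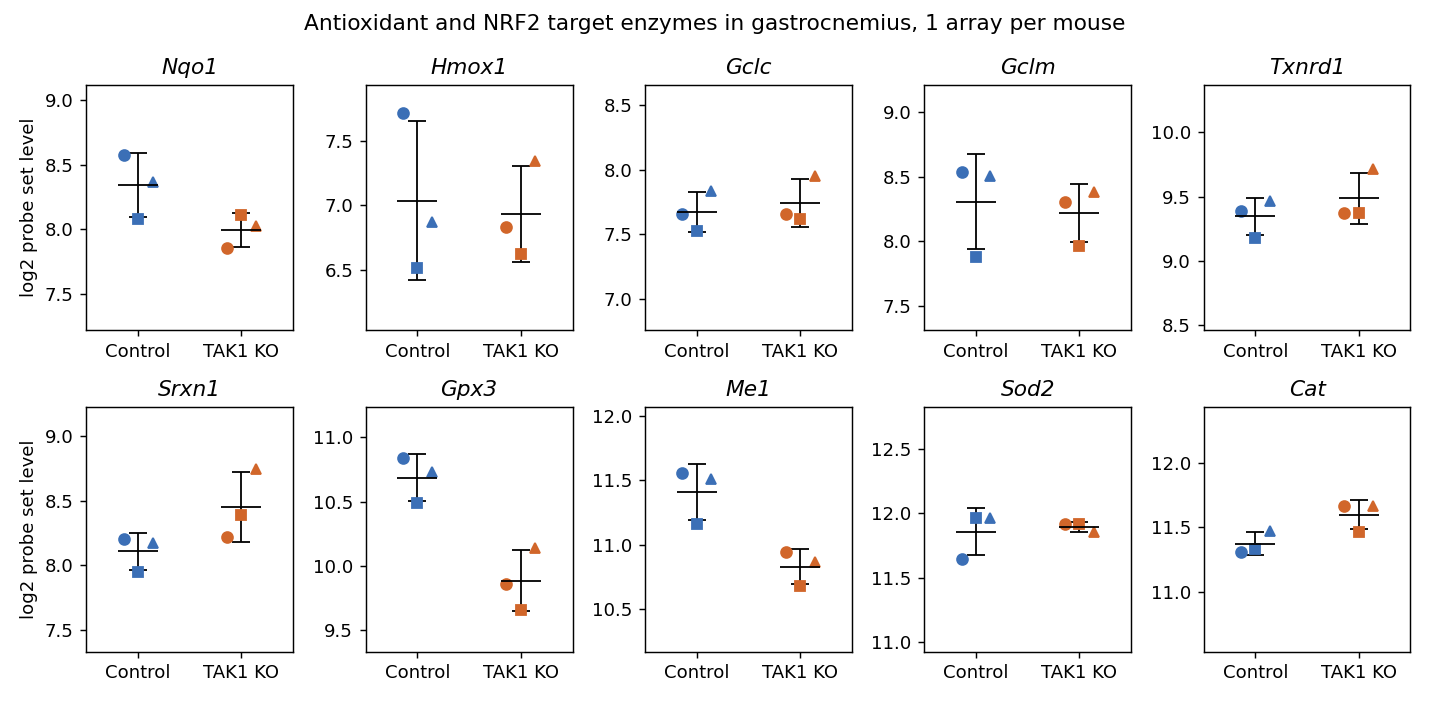
Log2 probe set level of each enzyme in 3 Control (blue) and 3 TAK1 KO (orange) arrays, 1 per mouse; circles, squares and triangles are replicates 1, 2 and 3, and black bars give the mean and SD. Every panel spans the same log2 range; Gpx3 and Me1 separate downward in KO, Srxn1 separates upward by a narrow gap, and the other 7 overlap.

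Among the enzymes that remove peroxide and superoxide, Gpx3 had the lowest log2 difference, KO minus Control. Gpx3 is a selenium-containing glutathione peroxidase that is secreted into the extracellular fluid and plasma. Its levels (probe set 17249787) were 10.84, 10.49 and 10.73 in Control muscle and 9.86, 9.66 and 10.14 in KO muscle. The lowest Control value exceeded the highest KO value, and the lowest KO value was on replicate 2. The mean was 10.68 ± 0.18 in Control and 9.89 ± 0.24 in KO muscle (SD, n = 3). The log2 difference was −0.80 (SE 0.15, 95% confidence interval −1.13 to −0.46), and it ranked 74 of 22180 genes by unadjusted p. The adjusted p was 0.146 (limma), so the difference did not pass. The exact two-sided permutation p was 0.1, the smallest that 3 against 3 arrays can give.

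Cat encodes catalase, the peroxisomal enzyme that breaks down hydrogen peroxide. Its levels (probe set 17388803) were 11.31, 11.33 and 11.47 in Control and 11.67, 11.46 and 11.66 in KO muscle. KO replicate 2 lay just under Control replicate 3, so the groups overlapped, while the other KO arrays were above every Control array. The log2 difference was 0.23 (95% confidence interval −0.01 to 0.46; limma, adjusted p = 0.643), a level 17.0% higher. Sod2 encodes the manganese superoxide dismutase of mitochondria, and its 6 values ran from 11.64 to 11.97. Control replicate 1 held the lowest value and the 3 KO values (11.92, 11.92 and 11.85) lay close together, with an SD of 0.04. The Sod2 log2 difference was 0.04 (95% confidence interval −0.22 to 0.30; limma, adjusted p = 0.968), and it turned to −0.07 without Control replicate 1.

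Me1 encodes the cytosolic malic enzyme, which forms NADPH while turning malate into pyruvate. Its levels (probe set 17529398) were 11.56, 11.16 and 11.51 in Control and 10.95, 10.68 and 10.87 in KO muscle. No KO value reached the Control values, and replicate 2 was the lowest array of each group. The mean was 11.41 ± 0.22 in Control and 10.83 ± 0.14 in KO muscle (SD, n = 3), a level 33.1% lower. The log2 difference was −0.58 (SE 0.13, 95% confidence interval −0.88 to −0.28; limma, adjusted p = 0.251). As for Gpx3, the exact two-sided permutation p was 0.1.

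For the enzymes of quinone and haem breakdown the groups overlapped. Nqo1 encodes a quinone reductase and is among the best known NRF2 targets. Its levels (probe set 17512732) were 8.58, 8.08 and 8.37 in Control and 7.85, 8.11 and 8.03 in KO muscle. Only KO replicate 2 overlapped the Control range, above the lowest Control array by 0.03. The log2 difference was −0.35 (SE 0.14, 95% confidence interval −0.67 to −0.02; limma, adjusted p = 0.589), and it ran from −0.23 without Control replicate 1 to −0.48 without Control replicate 2. Hmox1 encodes haem oxygenase 1, which opens the haem ring, and macrophages are known to express it strongly. Its levels (probe set 17502573) were 7.71, 6.52 and 6.87 in Control and 6.83, 6.62 and 7.34 in KO muscle. Hmox1 had the widest spread of the 10 enzymes, with a range of 1.20 within Control. The Hmox1 log2 difference was −0.10 (95% confidence interval −0.78 to 0.57; limma, adjusted p = 0.966), and it turned to 0.24 without Control replicate 1 and to 0.05 without KO replicate 2, with −0.36 without Control replicate 2.

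Glutathione synthesis begins with glutamate-cysteine ligase, a catalytic subunit encoded by Gclc and a modifier subunit encoded by Gclm. Gclc levels (probe set 17519579) were 7.66, 7.53 and 7.84 in Control and 7.66, 7.62 and 7.95 in KO muscle. Gclm levels (probe set 17402283) were 8.54, 7.88 and 8.50 in Control and 8.31, 7.96 and 8.38 in KO muscle. In both genes replicate 2 was the lowest array of its group. The log2 difference was 0.07 for Gclc (95% confidence interval −0.23 to 0.36; limma, adjusted p = 0.946). For Gclm it was −0.09 (95% confidence interval −0.53 to 0.35; limma, adjusted p = 0.952). Single arrays turned both directions. Gclc was at −0.006 without Control replicate 2 and −0.04 without KO replicate 3, and at 0.15 without Control replicate 3. Gclm was at 0.03, 0.008 and 0.04 without Control replicate 1, Control replicate 3 and KO replicate 2, and at −0.30 without Control replicate 2.

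Thioredoxin and peroxiredoxin depend on Txnrd1, the cytosolic thioredoxin reductase, and on Srxn1, the sulfiredoxin that restores over-oxidised peroxiredoxin. Srxn1 levels (probe set 17377666) were 8.20, 7.95 and 8.17 in Control and 8.22, 8.39 and 8.75 in KO muscle. KO replicate 1 was only 0.01 above Control replicate 1, and KO replicate 3 stood highest. The log2 difference was 0.34 (SE 0.15, 95% confidence interval 0.004 to 0.68; limma, adjusted p = 0.619), and without KO replicate 3 it was 0.19. Txnrd1 levels (probe set 17235915) were 9.39, 9.18 and 9.46 in Control and 9.37, 9.37 and 9.72 in KO muscle, again with KO replicate 3 highest. The Txnrd1 log2 difference was 0.14 (95% confidence interval −0.16 to 0.44; limma, adjusted p = 0.855), and it was 0.03 without KO replicate 3 and 0.06 without Control replicate 2.

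**Figure D2:**
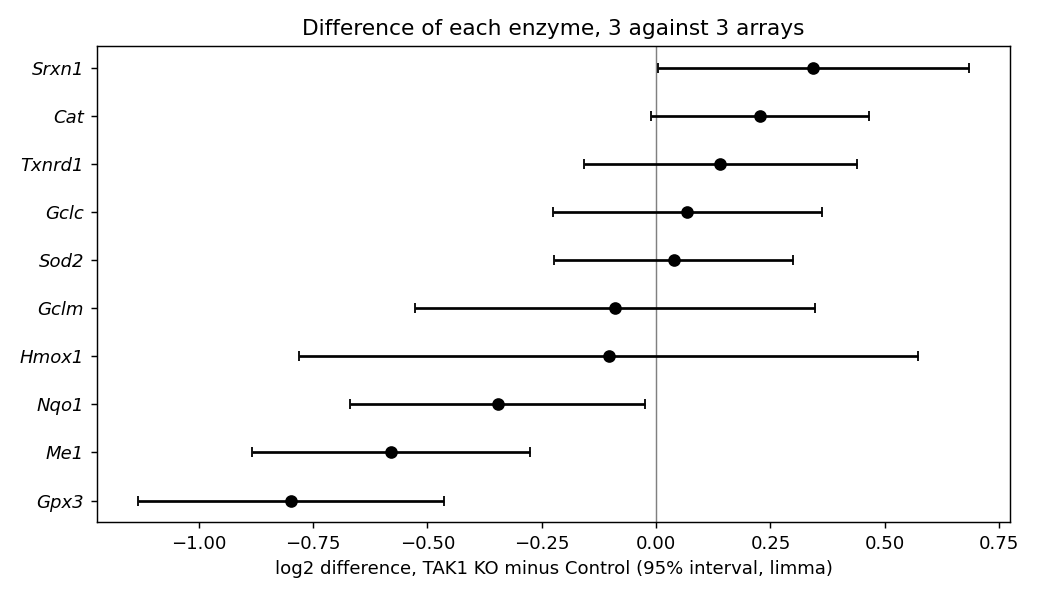
Log2 difference of each enzyme, TAK1 KO minus Control, as points with 95% confidence intervals from limma (3 against 3 arrays); the vertical line marks 0. The intervals of Gpx3, Me1, Nqo1 and Srxn1 leave out 0 before adjustment for all genes, and that of Hmox1 is the widest.

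Several enzymes were highest or lowest on the same array. Control replicate 2 was the lowest of the 6 arrays for 5 enzymes (Hmox1, Gclc, Gclm, Txnrd1 and Srxn1). Control replicate 1 was the highest for 5 (Nqo1, Hmox1, Gclm, Gpx3 and Me1), and KO replicate 3 for 3 (Gclc, Txnrd1 and Srxn1). The median deviation of the 10 enzymes from their own means was 0.12, −0.17 and 0.11 in the Control arrays. In the KO arrays it was −0.06, −0.08 and 0.15. These array medians overlapped between the groups.

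Enzymes with and without a promoter match were both divided in direction. Of the 4 genes printed above with a match, Txnrd1 and Srxn1 had positive differences and Gclm and Me1 negative ones. Of the 4 genes whose windows held none, Cat and Sod2 had positive differences and Nqo1 and Gpx3 negative ones. No gene of either group passed the threshold, and the signs of Gclm and Sod2 turned when single arrays were left out. Sequence outside the windows was not searched. With so few genes and unsettled signs, this comparison cannot decide whether a match goes with direction.

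The wider antioxidant pathways were read from 7 lists with 122 measured genes besides the 10 enzymes, 9 of them in more than 1 list. In this wider set 1 gene fell, 0 rose and 121 did not pass (limma, adjusted p of 0.05 over all genes). An unadjusted p under 0.05 was reached by 13 of the 122 (10.7%), against 8.04% of all genes. When only genes above the background guide were tested, 14 of 107 list genes reached it (limma), beside 1372 of 12601 genes. All KO arrays lay above every Control array in 7 of the 122 and below in 10, beside 6.74% and 6.65% of all genes. In all, 50 were higher and 72 lower in KO muscle, with a median log2 difference of −0.01. The gene that fell was Aldh1a1, a cytosolic retinaldehyde dehydrogenase that also clears lipid aldehydes. Its levels were 11.14, 10.82 and 10.63 in Control and 9.15, 9.04 and 9.75 in KO muscle, with no overlap. It was 2.94-fold lower (log2 difference −1.55, SE 0.20; limma, adjusted p = 0.0436). Its call was lost without Control replicates 1, 2 or 3 (adjusted p = 0.127, 0.166 and 0.164) and without KO replicates 1 or 2 (0.162 and 0.204), and it held without KO replicate 3 (0.0364). When every probe set of the array was tested, Aldh1a1 also missed the threshold (limma, adjusted p = 0.246), as it did with no sharing of variance between genes (adjusted p = 0.503).

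NRF2 itself and its partners are in the list of regulators. Of 12 measured regulators 0 passed, 5 were higher and 7 lower, with a median log2 difference of −0.04. Nfe2l2 had levels of 9.43, 9.43 and 9.62 in Control and 9.47, 9.24 and 9.41 in KO muscle, overlapping, and a log2 difference of −0.12 (limma, adjusted p = 0.853). Keap1, the inhibitor of NRF2, had the lowest difference of the list at −0.29. Its levels were 8.35, 8.11 and 8.15 in Control and 7.93, 7.85 and 7.97 in KO muscle, without overlap (limma, adjusted p = 0.527). The related factor Nfe2l1 followed at −0.14. At the other end stood the autophagy receptor Sqstm1, which can bind KEAP1, at 0.08, and Bach1, a repressor of Hmox1, at 0.07.

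Of 30 other NRF2 targets, 0 rose and 1 (Aldh1a1) fell, with a median of −0.03 and 22 of them above the background guide. After Aldh1a1 the lowest difference was that of Abcc4, an exporter of organic anions (−0.41; limma, adjusted p = 0.314). The highest were the glutathione transferases Gstm1 (0.16) and Gsta3 (0.12), the latter with mean levels of 4.99 and 5.11, under the guide. In the glutathione list 0 of 31 genes passed, 16 were higher and 15 lower, and the median was 0.004. Its lowest differences were in Chac1, which degrades glutathione (−0.89; limma, adjusted p = 0.513), and Mgst3, a microsomal glutathione transferase (−0.64; adjusted p = 0.217). Chac1 overlapped between the groups, since its Control levels spread over 8.41, 9.15 and 9.84, while Mgst3 did not overlap. The highest were the transferases Gsto1 (0.30) and Gstm7 (0.24).

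The thioredoxin, peroxiredoxin and methionine sulfoxide repair list had 0 of 15 genes past the threshold and a median of −0.004. Txnip, the inhibitor of thioredoxin, had the highest difference at 0.29, followed by the peroxiredoxin Prdx2 at 0.28. The lowest were the methionine sulfoxide reductase Msrb3 (−0.40) and the reductase Txnrd3 (−0.14). Adjusted p lay between 0.555 and 0.844 for these 4 genes (limma).

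Among 15 superoxide dismutases and superoxide sources 0 passed, with a median of −0.02. The NADPH oxidase Nox4, a source of hydrogen peroxide, had the highest difference at 0.64 (limma, adjusted p = 0.309). Its levels were 6.36, 7.00 and 6.42 in Control and 7.21, 7.25 and 7.25 in KO muscle. The KO arrays had an SD of 0.03 and lay above every Control array. Next was Ncf4, a subunit of the phagocyte oxidase, at 0.23. The lowest were the nitric oxide synthases Nos1 (−0.74; adjusted p = 0.419), the form of muscle fibres and nerves, and Nos2 (−0.18). Nos1 did not overlap between the groups, while Nos2 did.

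Of 14 genes of NADPH supply other than Me1, 0 passed, 5 were higher and 9 lower, with a median of −0.01. The mitochondrial enzymes Idh2, an isocitrate dehydrogenase (0.55; limma, adjusted p = 0.536), and Nnt, the transhydrogenase (0.41; adjusted p = 0.504), had the highest differences. Taldo1, a transaldolase of the pentose phosphate pathway (−0.24), and the NAD kinase Nadk (−0.20) had the lowest. Me1 lay below each of these 14 genes in its log2 difference. Among 14 metallothionein and selenoprotein synthesis genes 0 passed, with a median of −0.07. The lowest were the selenoprotein Selenon (−0.22) and the metal-responsive factor Mtf1 (−0.20). The highest were Eefsec (0.11) and Secisbp2 (0.10), which serve the insertion of selenocysteine, the amino acid that Gpx3 and Txnrd1 carry.

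**Figure D3:**
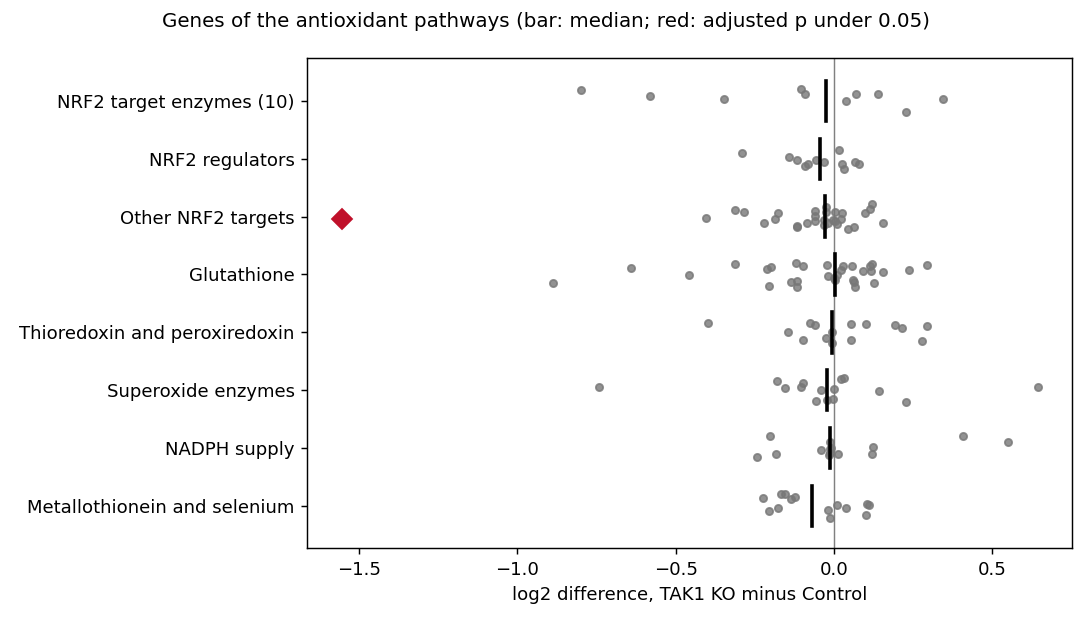
Log2 difference, TAK1 KO minus Control, of every measured gene of the 10 enzymes and of 7 antioxidant pathway lists (points), with list medians as black bars. The red diamond is Aldh1a1 at −1.55, the gene with an adjusted p under 0.05, and all list medians lie between −0.07 and 0.004.

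Markers of other cells in the muscle were set beside Gpx3 and Me1. Of 10 adipocyte markers 0 passed and 9 were lower, with a median log2 difference of −0.11, and 9 lay above the background guide. Their mean level was 7.50, 8.16 and 8.02 in Control and 7.59, 7.49 and 8.08 in KO arrays. On Control replicate 1, where Gpx3 and Me1 were highest, the adipocyte markers were at their Control minimum. On KO replicate 2, where both enzymes were lowest, these markers were at their lowest of the 6 arrays. That level, 7.49, was nearly the same as the 7.50 of Control replicate 1. Adipoq and Lep, which define adipocytes, had differences of −0.23 and −0.02, with mean levels of 5.85 and 5.83 for Lep.

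Of 11 tendon markers 10 were lower and 0 passed, with a median of −0.51, and 10 lay above the guide. An unadjusted p under 0.05 (limma) was reached by 5 of them, all lower, where 4.12% of all genes were lower at that p. All KO arrays lay below every Control array in 1 of the 11, beside 6.65% of all genes. Their mean level was 7.19, 7.87 and 7.70 in Control and 7.44, 7.03 and 6.46 in KO arrays, overlapping between groups. Tnmd and Scx, which define tendon cells, had differences of −1.02 and −0.18. Of 9 fibro-adipogenic markers 7 were lower and 0 passed, with a median of −0.21 and list levels from 9.79 to 10.13 in Control and from 9.21 to 10.30 in KO arrays. Pdgfra, which defines these progenitors, and Col1a1 had differences of −0.21 and −0.52. KO replicate 3 was the lowest array for tendon and fibro-adipogenic markers. Without it Gpx3 and Me1 had log2 differences of −0.92 and −0.60, beside −0.80 and −0.58 with all arrays. Without KO replicate 2 they had −0.69 and −0.50.

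Of 15 macrophage markers, set beside Hmox1, 0 passed, 7 were higher and 8 lower, and 14 lay above the guide. They had a median of −0.02, with list levels of 7.16, 6.86 and 6.83 in Control and 7.16, 6.88 and 6.86 in KO arrays. Control replicate 1 was highest in Hmox1 and in these markers. KO replicate 3, second in Hmox1, was among the lower arrays in the markers. Adgre1 and Cd68, which define macrophages, had differences of −0.23 and 0.42. The part of these cells in the Hmox1 values was not tested.

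Of 10 endothelial markers 0 passed, with a median of −0.003. Of 11 neutrophil markers 9 were higher and 0 passed, with a median of 0.13, and only 1 lay above the guide. All KO arrays lay above every Control array in 4 of the 11, beside 6.74% of all genes. An unadjusted p under 0.05 (limma) was reached by 4 neutrophil markers, all higher, where 3.93% of all genes were higher. No adipocyte, fibro-adipogenic, macrophage or endothelial marker reached that p. Among 15 fibre markers 0 passed, 4 were higher and 11 lower, with a median of −0.01. All KO arrays lay below every Control array in 5 and above in 1, against 6.65% and 6.74% of all genes. An unadjusted p under 0.05 (limma) was reached by 2 fibre markers, both lower, where 4.12% of all genes were lower at that p. They were Myh1 and Mylpf, which had the lowest log2 differences of the list (−0.49 and −0.46). Of the red blood cell list only 2 of 11 genes were measured, with a median of −0.07. The part of the adipocyte, tendon, fibro-adipogenic, endothelial and neutrophil markers in the values of the enzymes was not tested.

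**Figure D4:**
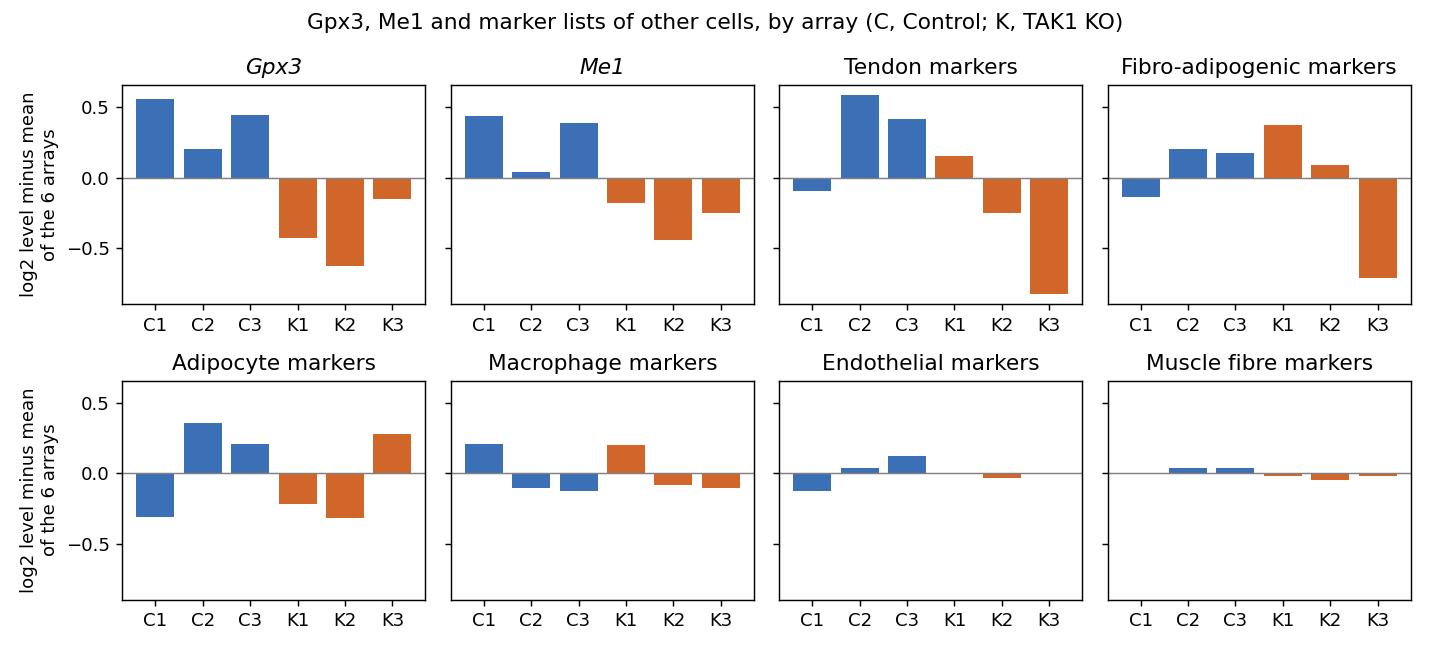
Log2 level of Gpx3, of Me1 and mean log2 level of 6 marker lists on each array, as bars relative to the mean of the 6 arrays (C1 to C3, Control; K1 to K3, TAK1 KO). Gpx3 and Me1 lie above 0 in every Control and below 0 in every KO array. The muscle fibre list divides the same way, at 13.61 to 13.64 in Control and 13.56 to 13.59 in KO. Its lowest log2 differences were those of Myh1 (−0.49) and Mylpf (−0.46), while the list median was −0.01. The tendon, fibro-adipogenic, adipocyte, macrophage and endothelial lists do not.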

How the data were processed

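Biotin-labelled cRNA of 6 gastrocnemius muscles was hybridised to Affymetrix arrays, 1 per mouse. The authors deposited log2 probe set summaries, and the submitters' processing notes name RMA, oligo and limma without version or order. Summaries of this kind compress differences of dim transcripts. Of 41345 probe sets, 23521 had 1 gene symbol in GEO's platform annotation, 1814 several and 16010 none. The single-symbol probe set with the highest mean represented each gene (1082 genes had several).

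The test of KO against Control used limma 3.58.1 (R 4.3.3; lmFit, eBayes, group means, two-sided, Benjamini-Hochberg over 22180 genes, threshold 0.05), tested on simulated data. P-values measure the spread between these mice, 3 per group, and the number of arrays limits the precision. The members and lists were chosen with earlier results of these data known. Named genes were the 10 enzymes, Map3k7, called list genes, the 2 highest and 2 lowest of each pathway list, and the first 2 markers of the adipocyte, tendon, fibro-adipogenic and macrophage lists. Nfe2l2, Myh1, Mylpf and, where arrays spread, further values were chosen after their values were seen. Scan batches were not analysed here. Figures used matplotlib 3.10.9 and Python 3.11.15.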

Additional observations from a re-analysis of the deposited data

How the results depend on the processing

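Under 16 alternatives (median centring, quantile normalization, averaged probe sets, all probe sets tested, 2 filters on dim genes, an intensity trend with robust prior, array weights, no sharing of variance, a replicate block and leaving out each array) 0 of the 10 enzymes passed. Gpx3 had log2 differences of −0.92 to −0.69 (adjusted p from 0.0589 to 0.532) and Me1 of −0.70 to −0.50 (0.112 to 0.619). Directions held for 6 enzymes, Nqo1, Txnrd1, Srxn1, Gpx3, Me1 and Cat. They turned for the other 4 when single arrays were left out, over ranges of −0.36 to 0.24 (Hmox1), −0.037 to 0.15 (Gclc), −0.30 to 0.038 (Gclm) and −0.068 to 0.093 (Sod2). The median of the enzymes ran from −0.15 to 0.05 without 1 array, so its sign is not settled.

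Genes called over all genes numbered 21, and 6 with every probe set tested, 53 above the median level, 45 above the receptor-gene level, 36 with a trend and robust prior, 0 with no sharing of variance (1612 at an unadjusted p under 0.05) and 2 to 11 without 1 array. The filters test fewer genes and the test of every probe set tests more, but unadjusted p moved as well. That of Aldh1a1 (limma) was 3.94e-05 in the main test and 0.000238 with every probe set tested. The cause of these changes was not tested. Called genes of the pathway lists numbered 1, and 0 with every probe set tested, with no sharing of variance (Aldh1a1, adjusted p = 0.503) and with the replicate block, and 0 to 1 without 1 array.

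Deviations of same-numbered Control and KO arrays correlated at 0.08, 0.21 and −0.07, and 3 of 6 arrays correlated best with their own number, so the numbers were not taken as pairs. With the replicate block 17 genes were called and 0 of the 10 enzymes passed, with 3 of them at an unadjusted p under 0.05 (limma). The median of the enzymes was −0.03 and Aldh1a1 had an adjusted p of 0.108.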
